A study of Mus musculus with 16 samples.

Results

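The 10 genes Acta1, Actn3, Ckm, Myh1, Myh2, Myh4, Mylpf, Tnnt3, Tnni2 and Tnnc2, which encode the contractile and energy-buffering proteins of fast skeletal muscle fibres, were followed in RNA from brown adipose tissue (BAT). They were taken as a list of fast fibre genes, chosen with earlier results of these data known, out of 51060 genes with a matched transcript. All 10 were among the 15632 genes with enough counts to be tested. The data are 16 mRNA libraries of BAT from mice of 7 weeks, with 4 libraries for each genotype in each sex, and the animals ate regular chow at ambient room temperature. All animals were C57Bl/6J mice with floxed alleles of Opa1, whose product fuses the inner membranes of mitochondria. The OPA1 BKO mice were Cre+, and WT littermates were Cre-. The Cre transgene is driven by the Ucp1 promoter, so that the allele is removed in thermogenic adipocytes and not in the other cells of the depot. Libraries are named S01 to S16, and values of a group follow the order S01, S05, S09, S13 for WT females, S03, S07, S11, S15 for WT males, S02, S06, S10, S14 for OPA1 BKO females and S04, S08, S12, S16 for OPA1 BKO males. Library totals ran from 13607283 to 23114534 estimated counts, with a median of 18359375. Nothing in the sources used here says whether muscle next to the depot was trimmed.

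Skeletal muscle contracts when myosin heavy chains, the motor proteins of the thick filament, pull on actin thin filaments inside repeating units called sarcomeres. Troponin on the thin filament binds calcium and switches the pull on, and the Z-disc, where actinin cross-links actin, passes it along the fibre. Fast fibres use their own versions of these proteins and slow fibres use others. The main BAT depot of the mouse lies between the shoulder blades against the muscles of the back. Brown adipocytes and skeletal muscle also descend in part from shared precursors and have several mitochondrial and metabolic genes in common.

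The members lie on 5 chromosomes of the mouse genome GRCm38 (mm10), as annotated by GENCODE M21. Myh2 (chr11:67171027-67197517), Myh1 (chr11:67200052-67224575) and Myh4 (chr11:67238029-67260446) follow each other on the plus strand of chromosome 11. Chromosome 7 carries Ckm (chr7:19404776-19422841), Mylpf (chr7:127208890-127214298), Tnni2 (chr7:142441808-142444410) and Tnnt3 (chr7:142498836-142516009), all on the plus strand. Acta1 (chr8:123891769-123894751), Tnnc2 (chr2:164777161-164779967) and Actn3 (chr19:4861216-4877909) lie on the minus strands of chromosomes 8, 2 and 19. Some of these genes share sequence with others, which limits how exactly reads could be divided among them. Of the 31-base words in its transcripts, Myh1 shared 42.9% with other genes, Myh2 34.5% and Myh4 30.4%, mostly with each other. Tnnc2 shared 59.0% with transcripts annotated to Ube2c, and Ckm 13.6% with other genes, chiefly A930016O22Rik. Mylpf, Tnnt3 and Tnni2 shared 0%, and Actn3 and Acta1 1.01% and 4.11%. The levels of the 3 myosins, Tnnc2 and Ckm are therefore less certain than those of the others.

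RefSeq promoter windows on GRCm38.p6 matched 7 of the 10 members by symbol, and Actn3, Tnnt3 and Tnni2 were not matched. The promoters of the 3 fast myosins are shown because their windows held the same run of 20 bases, marked in capitals. The run was found as the longest stretch common to these 3 windows, so its presence in them follows from that choice. It occurred in 3 of the 32851 windows searched over the 250 bases before the start site on both strands. All 10 members varied together, and no link of the run to their levels was tested. The lines give 100 bases of the plus strand, 5′ to 3′, with 40 bases on either side of the run: chr11:67170857-67170956 for Myh2, chr11:67199897-67199996 for Myh1 and chr11:67237609-67237708 for Myh4.
Myh2: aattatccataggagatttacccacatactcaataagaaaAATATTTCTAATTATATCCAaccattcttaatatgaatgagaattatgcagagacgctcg
Myh1: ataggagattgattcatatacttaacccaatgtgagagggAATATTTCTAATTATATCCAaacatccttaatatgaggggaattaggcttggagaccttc
Myh4: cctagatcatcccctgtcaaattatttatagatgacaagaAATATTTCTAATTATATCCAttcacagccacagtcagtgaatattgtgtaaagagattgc
Counted from the start sites in RefSeq, which are bases 67171027 for Myh2, 67200102 for Myh1 and 67237812 for Myh4 and differ from the GENCODE gene starts of Myh1 and Myh4, the run began 130, 165 and 163 bases upstream. On either strand, TATAAA was present in 3 of the 7 windows (Acta1, Myh1 and Myh4) and in 12.4% of all windows. The E-box CANNTG, the core letters bound by myogenic factors, was in 5 of 7 and in 66.2% of all. A CArG box was in 2 of 7 (Acta1 and Myh4) and in 1.47% of all, and a MEF2 site, in the form that allows either pyrimidine first and either purine last, was in 2 of 7 (Myh1 and Myh4) and in 2.92% of all. The CArG, MEF2 and TATAAA letters can share A and T bases. These are matches of letters and not measured binding.

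Opa1 mRNA was measured first as a check of the genotype labels. It stood at 209.6, 179, 176 and 194 CPM (a count relative to its library total, scaled by the TMM method) in WT females, at 181, 204, 152 and 177 in WT males, at 20.4, 36.9, 22.0 and 34.8 in OPA1 BKO females and at 27.1, 19.4, 30.6 and 17.9 in OPA1 BKO males. All 8 OPA1 BKO libraries were below all 8 WT libraries, with a log2 fold change of -2.82 ± 0.15 (SE, n = 8 against 8) and an adjusted p of 7.35e-10 by edgeR's quasi-likelihood test. Within OPA1 BKO the 4 libraries with the most member RNA (S04, S06, S12 and S14) held 27.1, 36.9, 30.6 and 34.8 CPM of Opa1, and the other 4 held 17.9 to 22.0 CPM. Across the 8 OPA1 BKO libraries the log2 level of Opa1 and the mean of the members had a Pearson r of 0.64 (exact permutation p = 0.0775, two-sided) and a Spearman rho of 0.69 (exact permutation p = 0.0694), and r was 0.82 without the 2 libraries farthest from the median. In WT, r was -0.18 (exact permutation p = 0.653) and rho -0.29 (exact permutation p = 0.501), with r at -0.20 without the 2 farthest. Neither relation passed p under 0.05, before or after adjustment for the 2 genotypes.

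The amount of fast muscle mRNA differed between libraries by orders of magnitude inside each genotype. Summed over the 10 members, TPM (a share of all transcripts that accounts for transcript length) came to 13.8, 2523, 4853 and 741 in WT females and to 235, 1334, 126 and 1440.4 in WT males. In OPA1 BKO females the sum was 1021, 16501, 11 and 5289, and in OPA1 BKO males it was 21738, 191, 5801 and 896. The highest WT library exceeded the lowest 352-fold, and the highest OPA1 BKO library exceeded the lowest 1968-fold. The members took 2.05% of all counts in S04 and 1.55% in S06, at most 0.578% in any other library, and 0.000434% in S10, where the 10 genes together had 74.0 counts. S01, a WT female, was the other library with very few, at 351 counts. In a bulk sample fewer muscle cells and less muscle RNA per cell cannot be told apart. TPM shares also depend on the mitochondrial genome, which held 31.6 to 44.8% of TPM in the 8 WT libraries and 8.28 to 15.1% in the 8 OPA1 BKO libraries, so genotypes were compared on TMM-scaled CPM.

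**Figure D1:**
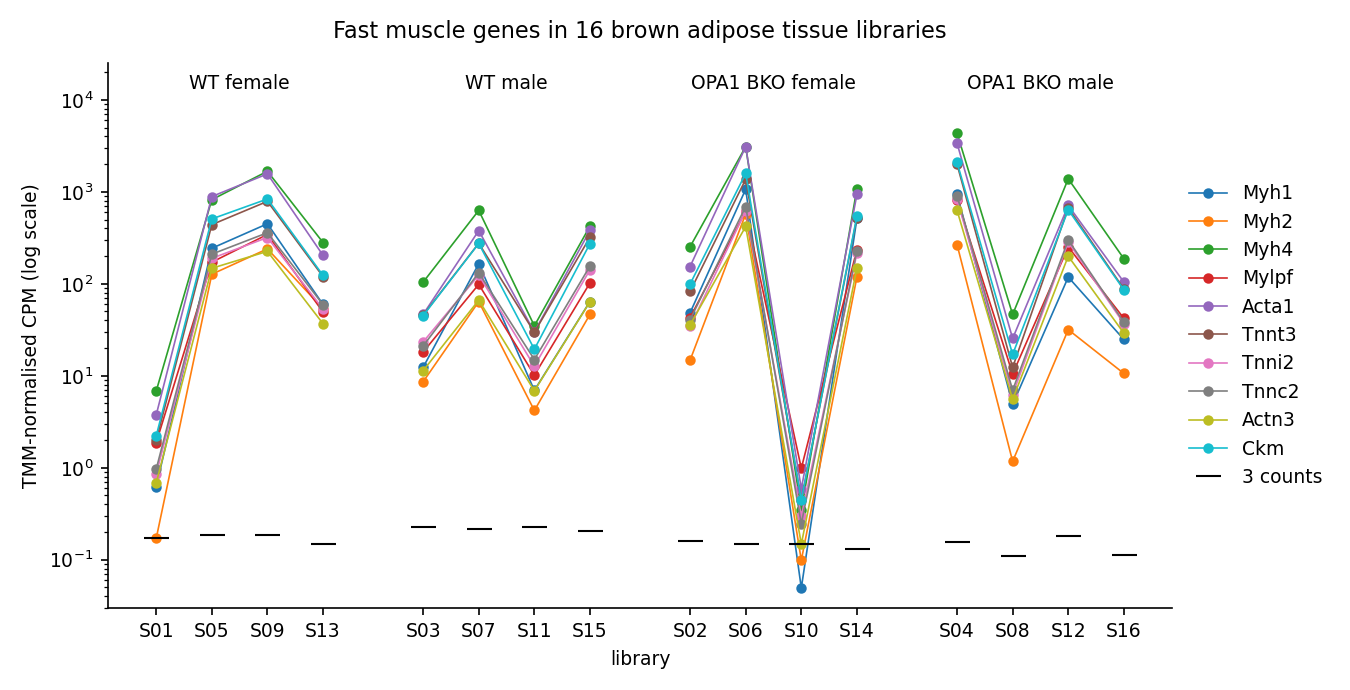
TMM-scaled CPM (log axis) of the 10 members in each of the 16 libraries, grouped by genotype and sex; each colour is a gene, lines join values of the same gene without implying an order, and black dashes mark the level of 3 counts. The 10 genes go up and down together, S04 and S06 are the highest libraries, and S10 and S01 are the lowest.

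Among the motor proteins, Myh4, the myosin heavy chain of the fastest (type IIb) fibres, had the highest CPM of the members in 14 of 16 libraries. Its level was 6.81, 822, 1673 and 281 CPM in WT females and 104, 628, 34.9 and 424 CPM in WT males. It was 253, 3104, 0.345 and 1084 CPM in OPA1 BKO females and 4335, 46.4, 1385 and 187 CPM in OPA1 BKO males. Each group of 4 thus held high and low libraries, and the WT range lay wholly inside the OPA1 BKO range. Myh1, the chain of type IIx fibres, had a lowest, median and highest level of 0.624, 61.9 and 449.6 CPM in WT and of 0.0493, 83.3 and 1067 CPM in OPA1 BKO libraries. Myh2, the chain of type IIa fibres, was the least abundant of the 3 fast chains in TPM in 15 of 16 libraries. It measured 0.170, 127, 239.8 and 53.5 CPM in WT females, 8.62, 64.1, 4.19 and 46.5 CPM in WT males, 14.8, 575, 0.0986 and 119 CPM in OPA1 BKO females and 267, 1.17, 31.7 and 10.6 CPM in OPA1 BKO males. S01 held 3 counts of Myh2, and S10 held 2 of Myh2 and 1 of Myh1, so no fold against these values is given. Mylpf, the regulatory light chain of fast myosin, had a lowest, median and highest level of 1.87, 73.9 and 344 CPM in WT and of 0.986, 139 and 822 CPM in OPA1 BKO libraries. It was the member with the narrowest range in both genotypes.

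On the thin filament and Z-disc the same libraries stood out. Acta1, the skeletal muscle alpha-actin, had a lowest, median and highest level of 3.75, 291 and 1568 CPM in WT and of 0.592, 432 and 3380.4 CPM in OPA1 BKO libraries. Tnnt3, the fast troponin T that anchors troponin to tropomyosin, had a lowest, median and highest level of 1.99, 198 and 788 CPM in WT and of 0.444, 307 and 1995 CPM in OPA1 BKO libraries. These ranges were again lowest in S01 and S10 and highest in S09 and S04. Tnni2, the fast inhibitory troponin, had a lowest, median and highest level of 0.851, 88.8 and 319 CPM in WT and of 0.296, 126 and 831 CPM in OPA1 BKO libraries. Tnnc2, the fast calcium-binding troponin C, had a lowest, median and highest level of 0.965, 95.6 and 359 CPM in WT and of 0.247, 135 and 910.4 CPM in OPA1 BKO libraries. Actn3, the actinin that fast fibres use to cross-link actin, had a lowest, median and highest level of 0.681, 50.3 and 225 CPM in WT and of 0.148, 92.0 and 631 CPM in OPA1 BKO libraries. For all 10 members the lowest OPA1 BKO library was below the lowest WT library, and the highest was above the highest WT library.

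Ckm, the muscle creatine kinase that keeps ATP supplied during contraction, followed the mean of the members most closely. Its level was 2.21, 507, 836 and 124 CPM in WT females, 45.2, 274, 19.4 and 274 in WT males, 99.3, 1586, 0.444 and 546 in OPA1 BKO females and 2091, 17.1, 638 and 86.1 in OPA1 BKO males. Per length, Acta1 was the highest member in 7 libraries, Tnnt3 in 6 and Mylpf in 3 (S01, S10 and S08, which were among the 4 libraries with the least member TPM).

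Spread within a genotype was large for the level of these genes. The SD of log2 CPM over the 8 WT libraries ran from 2.45 (Mylpf) to 3.32 (Myh2), with a median of 2.78, while the median over the 15622 other genes tested was 0.27 and their 95th percentile was 1.06. In the 8 OPA1 BKO libraries the members ran from 3.27 (Mylpf) to 4.63 (Myh1), with a median of 4.04 against 0.25 and a 95th percentile of 0.96. Ranked by SD, the members fell between places 28 and 165 of 15632 in WT and between places 5 and 68 in OPA1 BKO. Most genes with an SD as high were scarce. Of the 6418 other genes whose mean level was at least that of the lowest member, 7 in WT and 7 in OPA1 BKO were as variable as the least variable member. A single library made up much of this: the median SD was 1.87 in WT without S01 and 2.57 in OPA1 BKO without S10. Whether the spread differed between the genotypes was not tested.

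**Figure D2:**
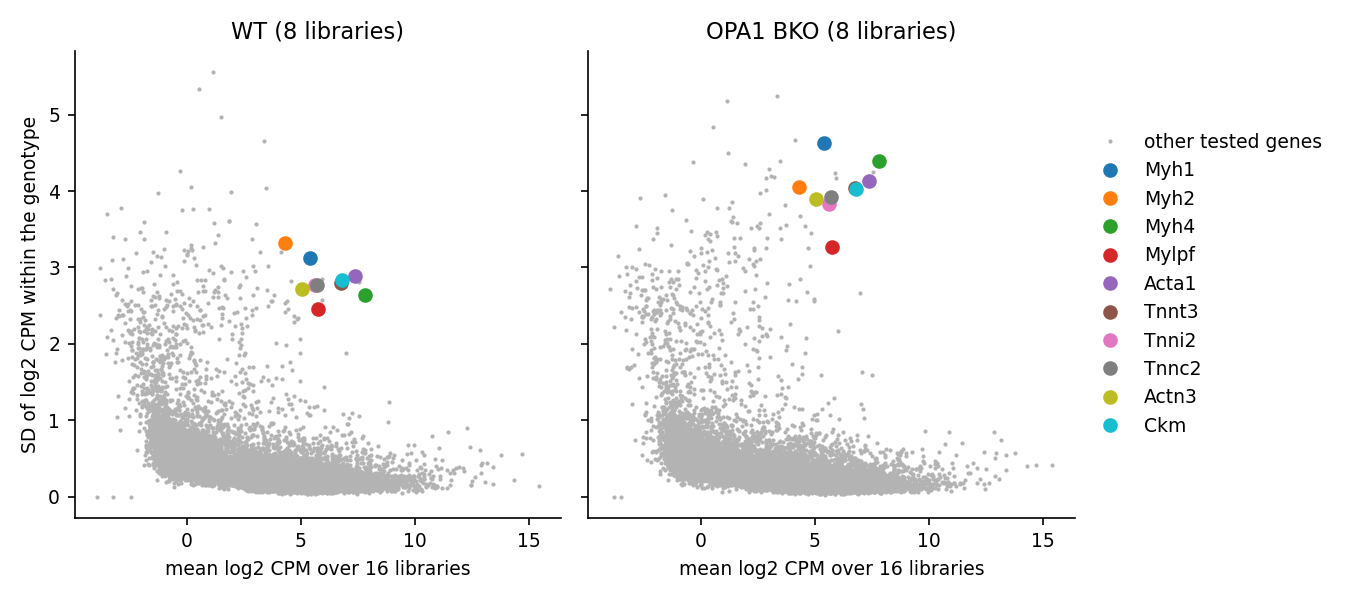
SD of log2 CPM within WT (left) and OPA1 BKO (right) libraries against the mean log2 CPM over 16 libraries; grey points are the other tested genes and coloured points the 10 members. The members lie above nearly all genes of their level, with medians of 2.78 in WT and 4.04 in OPA1 BKO.

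The members kept nearly the same order of libraries as each other. Over the 8 WT libraries the Spearman rho of the 45 pairs of members ran from 0.93 to 1, with a median of 0.98, and all 45 pairs passed an exact permutation test (two-sided, Benjamini-Hochberg over 45 pairs, highest adjusted p = 0.00223). Over the 8 OPA1 BKO libraries rho had the same bounds and median, and all 45 pairs passed (exact permutation, highest adjusted p = 0.00223). The smallest p that 8 libraries allow for rho is 4.96e-05. Pearson r ran from 0.981 to 1.00 in WT (exact permutation, highest adjusted p = 9.92e-05) and from 0.954 to 1.00 in OPA1 BKO (highest adjusted p = 0.000248). Without the 2 libraries farthest from the median, r was at least 0.928 in WT and at least 0.918 in OPA1 BKO. All pairs share the library and its scaling, and the pairs are not independent of each other. The members were also chosen with earlier results of these data known. A single component held 98.8% of the variance of the 10 centred log2 levels over 16 libraries, and 97.8% over the 14 libraries with at least 10 counts of every member.

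The small remainder was not equal among the genes. In those 14 libraries the log2 ratio of a member to the member mean had an SD of 0.15 for Ckm, between 0.21 (Acta1) and 0.30 (Myh4) for the 7 members from Acta1 to Myh4, 0.55 for Myh1 and 0.73 for Myh2. Myh2 ranged from -1.52 in S12 to 1.10 in S13, and Myh1 from -0.82 in S12 to 1.07 in S14. The myosins of type IIa and IIx fibres thus varied most against the rest, and they are also the members with the most sequence shared among themselves.

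Genotype was compared to ask whether loss of OPA1 in brown adipocytes went with a change in these genes. With sex as a term, edgeR called 0 of the 10 members for genotype at an adjusted p under 0.05, 0 higher and 0 lower in OPA1 BKO, whereas 41.0% of all genes tested were called, 20.8% higher and 20.2% lower. At an unadjusted p under 0.05 the count was also 0, and DESeq2 and limma on log2 TPM called 0 as well. All 10 estimates were above 0 in OPA1 BKO, from 1.04 ± 1.14 (SE) for Myh2 to 1.62 ± 1.23 for Myh1, with a median of 1.44 beside 0.01 over all genes tested. The adjusted p ran from 0.291 (Mylpf) to 0.494 (Myh2) in edgeR's quasi-likelihood test. The estimates leaned on S04 and S06, the libraries with the most member RNA, a pair picked after the values were seen. Without S04 they ran from -0.05 (Myh2) to 0.79 (Actn3), without S06 from 0.19 to 1.18, and without both from -1.18 (Myh2) to 0.19 (Actn3), with a median of -0.07. Leaving out the highest libraries of OPA1 BKO alone was bound to lower the estimates. Without S09, the WT library with the most member RNA, they ran from 1.43 (Myh2) to 2.07 (Myh1). Without S01 and S10, the lowest library of each genotype, they ran from 1.08 (Myh2) to 1.69 (Myh1). With SEs of 1.07 to 1.23, a genotype difference of the size estimated was not detectable with 8 libraries a genotype, and its absence is not shown.

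**Figure D3:**
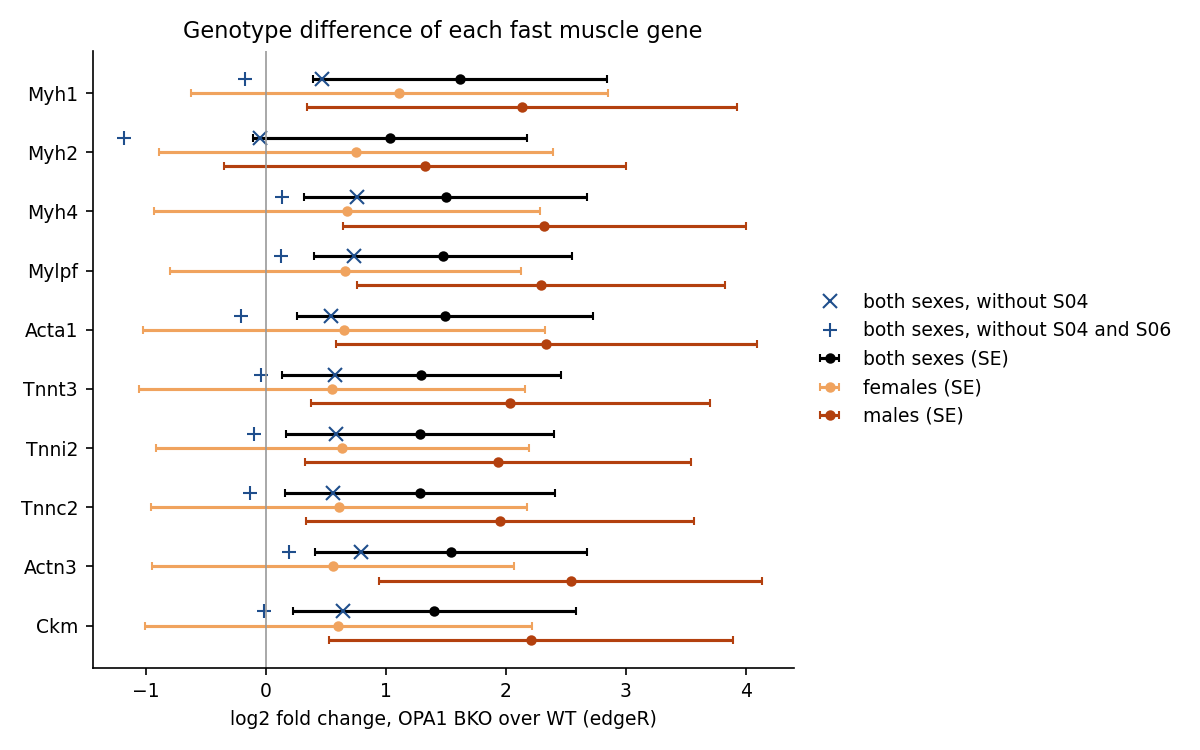
Log2 fold change of each member, OPA1 BKO over WT, with its SE, for both sexes together (black), females and males, from edgeR fits of 16 libraries; crosses and plus signs give the estimate for both sexes without S04 and without S04 and S06. The estimates lie between 1.04 and 1.62 with all libraries and between -1.18 and 0.19 without S04 and S06, the libraries highest in the members.

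Sex was treated in the same way. edgeR called 0 of 10 members for sex, against 4.24% of all genes tested, with 0 at an unadjusted p under 0.05 and 0 by DESeq2 and limma. The edgeR estimates, male minus female, ran from -1.48 ± 1.15 for Myh2 to -0.24 ± 1.10 for Tnni2. Their direction depended on the method. In the limma fit of log2(TPM + 0.5) the estimates ran from -0.93 (Myh2) to 0.56 (Tnnt3), with a median of 0.31. By edgeR with each library left out in turn they ran from -2.59 to 0.29, and without S06 Tnni2 stood at 0.29. Within females the genotype estimates were 0.55 (Tnnt3) to 1.11 (Myh1), and within males they were 1.33 (Myh2) to 2.54 (Actn3). The difference between the sexes, tested as an interaction, was called for 0 of 10 members against 0.115% of all genes tested, with 0 at an unadjusted p under 0.05 and 0 by DESeq2 and limma. Actn3 had the highest interaction estimate, 1.98 ± 2.15 (adjusted p = 0.757 by edgeR), and with each library left out the 10 interaction estimates ran from -1.87 to 3.28.

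Many other genes followed the members across the 16 libraries. By Pearson r with the mean of the members, 138 of 15622 other genes tested were above 0.9, 70 above 0.95 and 15 above 0.99, and 0 were below -0.8. These r are descriptions over libraries that share depth and scaling. The most alike was Eef1a2, the elongation factor form of muscle and nerve (r = 0.999), which ran at 0.114, 41.7, 74.6 and 10.6 CPM in WT females, 2.36, 19.9, 1.07 and 16.5 in WT males, 6.12, 146, 0 and 44.8 in OPA1 BKO females and 139, 0.954, 31.3 and 4.32 in OPA1 BKO males. S10 had no read of it, and the highest libraries were again S06 and S04. The next by likeness were Atp2a1, the calcium pump of the fast fibre reticulum (r = 0.997), Art1 (0.997), the giant sarcomere spring titin, Ttn (0.997), the Z-disc gene Myoz1 (0.996) and the mitochondrial creatine kinase Ckmt2 (0.995). The remaining 9 of the nearest 15 were Mybpc1, Hfe2, Casq1, Mybpc2, Cacna1s, Xirp2, Smpx, Myot and Dhrs7c, with r from 0.995 to 0.990. They include myosin-binding proteins (Mybpc1, Mybpc2), the calcium store protein of the reticulum (Casq1) and its voltage sensor (Cacna1s). None of the 138 genes above 0.9 was called for genotype by edgeR, beside 41.0% of all genes, and their median log2 fold change was 1.27. Because these genes were picked for likeness to the members, that count and median largely follow from the choice and are no separate result. The summed level of the 138 genes ran from 0.00924% to 1.61% of all TPM over the libraries.

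Lists of related muscle genes were read in the same way, with counts over all listed genes that were tested. Over all genes tested, 41.0% were called for genotype. Of 16 other contractile genes of fast fibres, 0 were called for genotype and 12 had an r above 0.9. Of 15 genes of excitation and calcium handling, 0 were called and 10 had an r above 0.9. Of 8 genes of muscle energy metabolism, 0 were called and 4 had an r above 0.9. The medians of log2 fold change were 1.37, 1.36 and 1.21, close to the 1.44 of the members. Pvalb, the fast fibre calcium buffer, had an r of 0.990 and a log2 fold change of 1.25 ± 1.12, and the thin filament gene Tpm2 had an r of 0.957 and 1.14 ± 0.97. The muscle enolase Eno3 had an r of 0.936 and 1.23 ± 0.81.

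Some muscle genes had a floor. Myl1, the essential light chain of fast myosin, kept 45.3 CPM in S10 and 53.8 CPM in S01, where Myh4 was at 0.345 and 6.81 CPM, and it reached 795 CPM in S04. Its r with the member mean was 0.875. The glycolytic gene Pfkm likewise kept 73.4 CPM in S10 and 111 CPM in S01 and reached 428 CPM in S04.

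Cox6a2, which encodes the muscle form of a cytochrome oxidase subunit, followed the members in WT and did so less closely in OPA1 BKO. Its level was 0.0568, 24.4, 44.8 and 5.74 CPM in WT females and 1.37, 12.5, 0.686 and 11.3 CPM in WT males. It was 16.5, 97.9, 12.8 and 39.9 CPM in OPA1 BKO females and 108, 22.9, 43.3 and 19.6 CPM in OPA1 BKO males. In S10, where the members were lowest of all, Cox6a2 was 12.8 CPM (260 counts), whereas S01 held 0.0568 CPM (1 count). Its r with the member mean was 0.998 in WT and 0.849 in OPA1 BKO. Such a fall was not particular to Cox6a2: r was 0.991 and 0.869 for Actn2 and 0.986 and 0.835 for Actc1. The log2 fold change of Cox6a2 was 1.99 ± 0.79, and its adjusted p of 0.0532 by edgeR missed the threshold, while DESeq2 gave 0.0401. With the mean of the members added as a covariate, chosen after the values were seen, it was 2.13 with an adjusted p of 0.00226 by edgeR. Without S04 and S06 it was 1.22 (adjusted p = 0.240), and with each library left out the adjusted p ran from 0.0178 (without S09) to 0.138 (without S06).

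Des, the intermediate filament desmin of skeletal, cardiac and smooth muscle, showed a like pattern at a higher floor. It measured 58.2, 179.8, 252 and 104 CPM in WT females, 62.5, 122, 69.5 and 127 in WT males, 154, 473, 151 and 235 in OPA1 BKO females and 643, 176, 269 and 162 in OPA1 BKO males. The lowest OPA1 BKO value, 151 CPM in S10, was above 6 of the 8 WT values. Des was called higher in OPA1 BKO, with a log2 fold change of 1.24 ± 0.38 (adjusted p = 0.0148 by edgeR). It kept the call with each library left out, with its highest adjusted p without S06 (0.0446 by edgeR). The call was lost without S04 and S06 (0.69, adjusted p = 0.0846 by edgeR), a pair whose removal was bound to lower the estimate. With the member mean as a covariate, chosen after the values were seen, it was 1.18 (adjusted p = 0.000323 by edgeR). Of the other 6 genes in the smooth muscle list, which Des was counted with, 5 were called lower and 0 higher in OPA1 BKO, among them smooth muscle actin Acta2 (-0.60 ± 0.16). Over all genes tested 20.2% were called lower. The size of these falls depends on the scaling. With library size alone the median of all genes tested was 0.57 instead of 0.01, and Acta2 averaged 30.8 TPM in WT and 39.1 TPM in OPA1 BKO. Des was chosen for description after its values were seen.

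**Figure D4:**
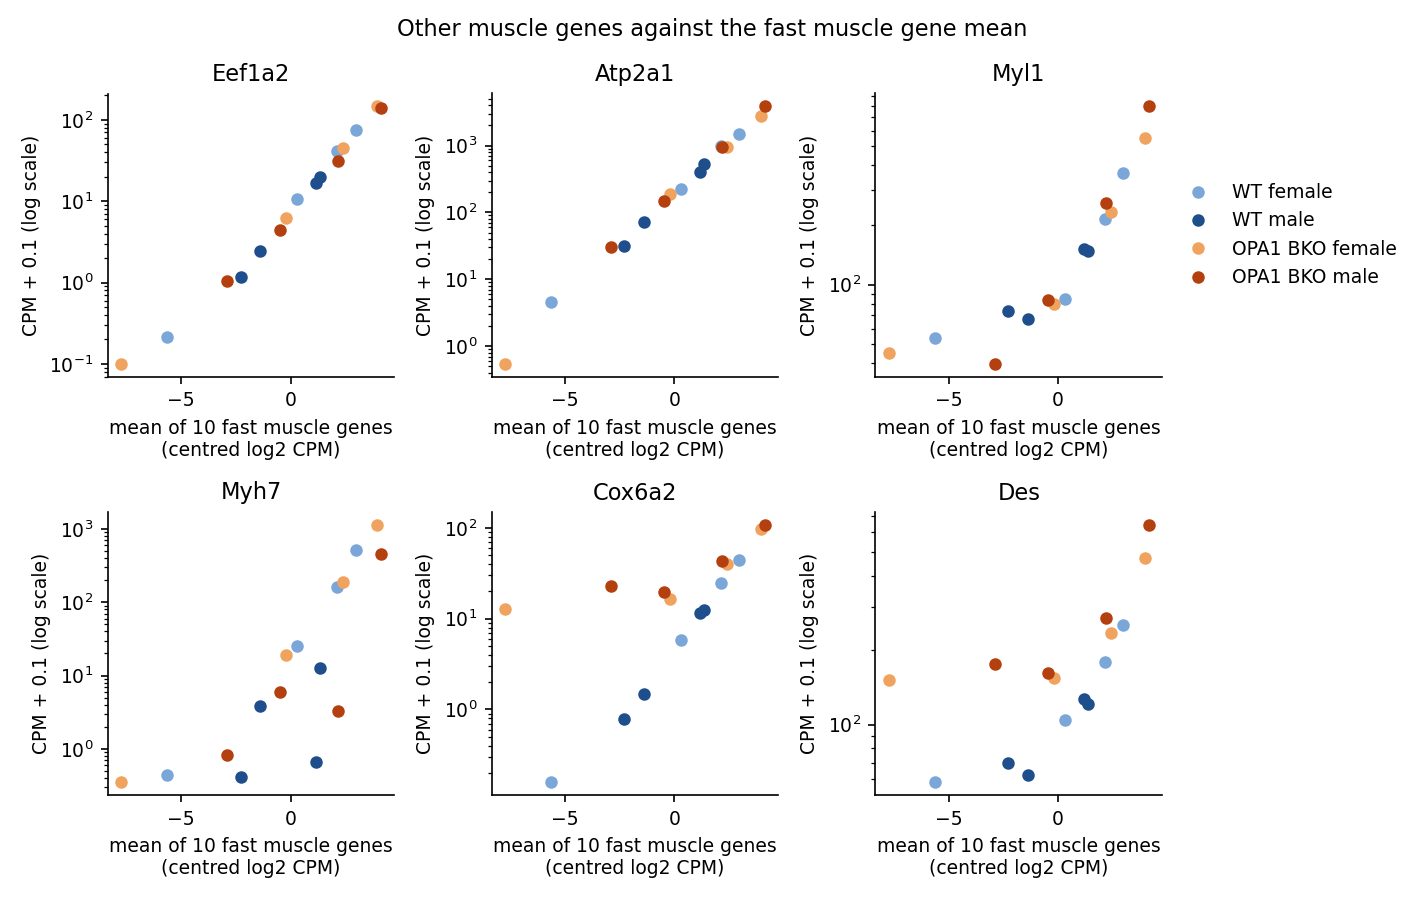
Level of 6 other muscle genes (CPM + 0.1, log axis) against the centred mean log2 CPM of the 10 members, with the 16 libraries coloured by genotype and sex. Eef1a2 and Atp2a1 follow the members along a line in both genotypes, Myl1 levels off in libraries with little member RNA, Myh7 scatters, and Cox6a2 and Des are higher in OPA1 BKO than in WT libraries where the members are low.

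Of 5 muscle genes that brown fat also expresses, Fabp3, a carrier of fatty acids, rose in OPA1 BKO by 1.12 ± 0.16 (adjusted p = 5.77e-05, edgeR), and the cytochrome oxidase subunits Cox8b (-0.78 ± 0.13, adjusted p = 0.000163) and Cox7a1 (-0.54 ± 0.10, adjusted p = 0.000356) fell. The falls of Cox8b and Cox7a1 depend on the scaling. With library size alone the call for Cox8b was lost (-0.22) and Cox7a1 stood at 0.016, and in the limma fit of log2(TPM + 0.5) Cox8b was 0.20 and Cox7a1 was 0.44 with an adjusted p of 4.29e-05, a call in the opposite direction. For Fabp3, Cox8b and Cox7a1 the r with the members was 0.126, -0.133 and -0.0743. Ckmt2 and the oxygen store Mb, in the same list, were not called and had an r of 0.995 and 0.959. The list therefore held genes that tracked the members and genes that did not.

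Genes of slow fibres were present too. Of 10, 1 was called for genotype, Atp2a2, the calcium pump of slow and cardiac muscle and of many other cells, which rose by 0.80 ± 0.21 (adjusted p = 0.00651, edgeR) and had an r of 0.421. The other 9 were not called, and the median of the 10 was 1.88. The slow light chain Myl2 had the highest mean TPM of the list and a log2 fold change of 2.32 ± 1.5, and the slow tropomyosin Tpm3 0.49 ± 0.32. None of the 10 had an r above 0.9 with the members.

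By level, 0 of the 10 slow fibre genes were called for sex, and Myh7, the myosin of slow and cardiac muscle, had a log2 fold change, male minus female, of -3.31 with an adjusted p of 0.266 by edgeR. The share of Myh7 among the myosins, a measure chosen after the values were seen, was higher on average in females. The adjustment of its p-values over 8 comparisons does not cover that choice. Of the summed TPM of Myh1, Myh2, Myh4 and Myh7, Myh7 made up 12.9, 21.1, 28.6 and 9.95% in WT females and 7.67, 2.49, 4.80 and 0.124% in WT males. It made up 9.59, 29.0, 42.4 and 14.9% in OPA1 BKO females and 14.6, 1.65, 0.598 and 6.50% in OPA1 BKO males. The mean over all libraries was 21.1% ± 11.6 (SD, n = 8) in females and 4.80% ± 4.81 (n = 8) in males (exact permutation p = 0.000932, two-sided, adjusted 0.00746 over 8 comparisons of 4 genes by sex and genotype). In WT the 4 females were all above the 4 males, and in OPA1 BKO only S04 among males exceeded the lowest female. The libraries S10, S01 and S11 rest on few counts: S10 held 15 myosin counts in all (with Myh7 33.3% of them, 95% Wilson interval 15.2 to 58.3%), S01 140 and S11 608. In the 13 libraries with at least 1000 myosin counts the means were 18.9% (n = 6) and 4.80% (n = 7), with an exact permutation p of 0.00583 (adjusted 0.0218).

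The fast IIb myosin moved the other way. Myh4 made up 78.1, 54.4, 50.6 and 64.0% in WT females, 76.9, 71.5, 72.3 and 79.1% in WT males, 72.4, 46.4, 40.5 and 53.7% in OPA1 BKO females and 66.7, 86.9, 89.7 and 78.6% in OPA1 BKO males. Its mean was 57.5% ± 12.9 (SD, n = 8) in females and 77.7% ± 7.75 (n = 8) in males (exact permutation p = 0.00311, adjusted 0.0124). Since the 4 shares add up to the whole, this is not a second independent result. The limit given for the p-values of the Myh7 share holds for all 4. Between genotypes neither share passed the test: Myh7 averaged 11% in WT and 14.9% in OPA1 BKO (n = 8 each, exact permutation p = 0.535), and Myh4 68.4% and 66.9% (exact permutation p = 0.845). The share of Myh2 was 7.59% ± 2.88 in WT and 5.36% ± 3.18 in OPA1 BKO (n = 8 each, exact permutation p = 0.159), and in the 13 deeper libraries 8.36% and 4.50% (exact permutation p = 0.00816, adjusted 0.0218), so that call rests on leaving out S01, S10 and S11. Myh7 shared 27.9% of its 31-base words with other genes, chiefly Myh6 of the heart.

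**Figure D5:**
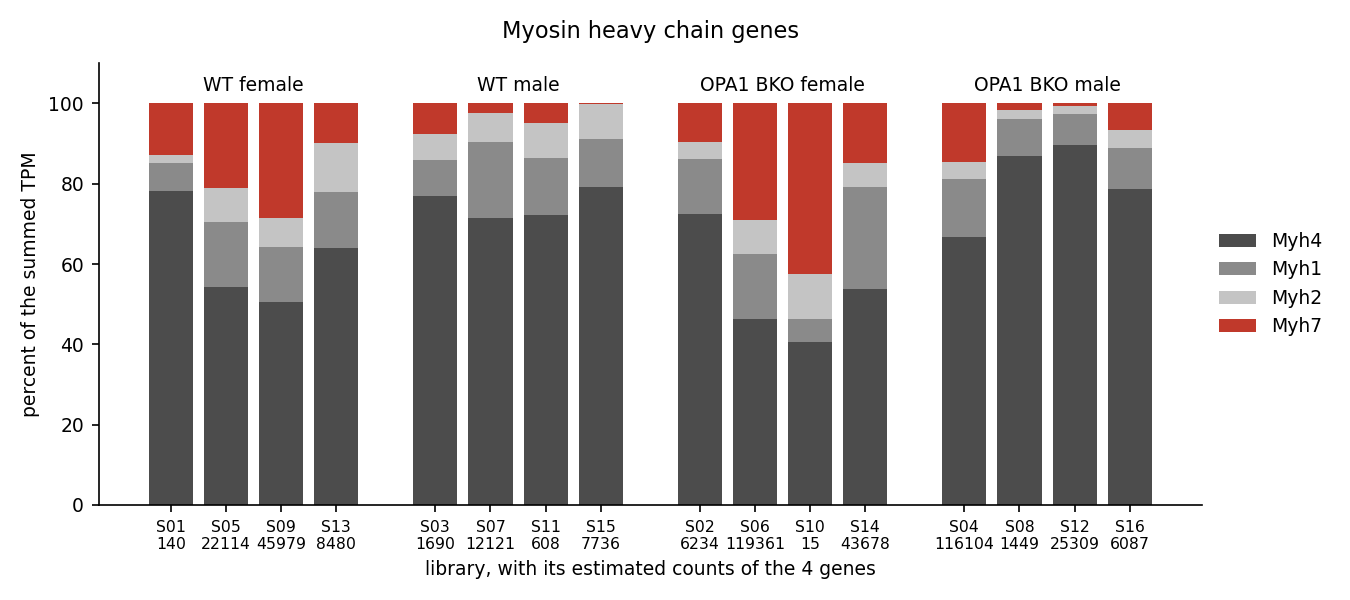
Share of Myh4, Myh1, Myh2 and Myh7 in their summed TPM (percent) in each library, with the estimated counts of the 4 genes under the library name. Myh7 (red) takes a larger share in females, with a mean of 21.1%, than in males, with a mean of 4.80%. This measure was chosen after the values were seen, and by level Myh7 was not called for sex. S10 and S01 hold few counts.

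Markers of embryonic and regenerating muscle were low beside the members, with a summed TPM of the 7 listed from 0 to 3.12 over WT libraries and from 0.319 to 13.6 over OPA1 BKO libraries. Sums of TPM are given here for level and not to compare the genotypes. The embryonic and perinatal myosins Myh3 and Myh8 reached at most 41.0 and 13.1 counts, both in S06, where Myh4 had 62950.1. The cardiac actin Actc1, which developing muscle also uses, reached 169 counts and the acetylcholine receptor subunit Chrna1 140.2. These were the only 2 of the 7 that passed the filter, and 0 were called (1.29 ± 0.81 and 1.44 ± 1.03). The fusion gene Mymx had no count in any library. Of 8 myogenic regulators and satellite cell genes 4 passed the filter and 0 of them were called. The genotype estimates included Mef2c at 0.40 ± 0.36, Myf6 at 1.72 ± 0.98 and Myod1 at 1.63 ± 1.04. Myf6, a factor of mature fibres, had an r of 0.948 with the members. At their highest Myod1 had 50 counts and Myog, which did not pass the filter, 57.0. The satellite cell gene Pax7 had at most 15 counts, in S06. Cardiac genes were low, with Myl7 at 0 counts in all libraries and a summed TPM of the 6 listed from 0.559 to 2.31 in WT and from 0.810 to 6.43 in OPA1 BKO. Myh6, the cardiac myosin that shares sequence with Myh7, had 90.9 counts in S06, 36.5 in S09, 27.7 in S04 and at most 18.2 in any other library, and Tnni3 had 3 to 16. Of the 2 cardiac genes tested, Myh6 and Ryr2, 0 were called.

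The labelled tissue was checked against its markers. Ucp1, the uncoupling protein of thermogenic adipocytes, was between 3187 and 6815 CPM in WT and between 2011 and 5373 CPM in OPA1 BKO, lowest in S04, the library with the most member RNA. The 7 brown adipocyte markers summed to 3672 to 5372 TPM in WT and 4505 to 9491 TPM in OPA1 BKO, with 1 called higher and 1 lower, and general adipocyte markers had 1 of 7 higher and 3 lower. The mitochondrial genome took a larger share of TPM in WT, so these sums show levels and not genotype differences. The brown adipocyte marker Cidea averaged 1621 TPM in WT and 2329 TPM in OPA1 BKO, yet was called lower by edgeR (-0.43 ± 0.10). All 7 macrophage markers were higher in OPA1 BKO (summed TPM 62.7 to 94.6 over WT libraries, 155 to 673 over OPA1 BKO libraries), with none at 0, as were 3 of 6 fibroblast markers, while 3 of 5 endothelial and 2 of 7 lymphocyte markers were lower. Over all genes tested 20.8% were called higher and 20.2% lower, so the smaller counts are not read as a change of a cell type. The size of each change also depends on the scaling. Tendon and cartilage (3 tested), nerve (6), skin (1) and erythroid (5) markers had 0 called for genotype. Krt1 of the skin list was at 0 in all libraries. Across the 8 OPA1 BKO libraries the summed level of some lists also varied with the member mean: Pearson r was 0.817 for tendon and cartilage, 0.804 for macrophages, 0.737 for fibroblasts and -0.677 for brown adipocytes. In the 8 WT libraries the same r were 0.0925, -0.0463, 0.173 and 0.000184. For other lists r in OPA1 BKO was 0.692 for cardiac genes, 0.404 for nerve, 0.255 for erythroid, 0.0581 for lymphocytes and 0.0578 for skin. It was -0.256 for general adipocytes and -0.311 for endothelium, and none of these r was tested. The smooth muscle list, which includes Des, had an r of 0.780 in WT and 0.736 in OPA1 BKO. The tendon and cartilage sum was at most 5.79 TPM in OPA1 BKO, and 3 of its 6 genes had at most 10 counts in any library. Of the 3 tested, Thbs4 had an r of 0.827 with the member mean in OPA1 BKO, Scx 0.592 and Fmod 0.159. Whether these cell types had a part in the levels of the members was not tested.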

How the data were processed

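The 16 BAT libraries had been prepared with the Illumina TruSeq stranded kit and quantified by the authors with kallisto 0.45.0 (mm10 is the build in the submitters' notes; the annotation release is not given in the sources used here). The deposited files give, per transcript, an estimated count and TPM, the latter scaled by the authors to transcript length and library. Reads compatible with several transcripts are shared among them by likelihood.

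Transcript IDs (version removed) were matched to GENCODE M21: 133284 of 135308 matched, and those without a match held 0.483 to 0.73% of counts. Estimated counts and TPM were summed per gene, and counts were rounded. edgeR 4.0.16 (R 4.3.3; TMM; filterByExpr, minimum count 10, minimum total 15; quasi-likelihood F test) was fitted to all 16 libraries with sex and genotype, or with 1 mean per group for the interaction and for each sex, and p-values were adjusted by Benjamini-Hochberg over 15632 genes. Log2 CPM used a prior count of 0.5. Spearman and Pearson correlations used exact permutations of 8 libraries. The fit was tested on simulated data.

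Alternatives were DESeq2 1.42.0, limma 3.58.1 on log2(TPM + 0.5) and log2(TPM + 0.1), other scalings and filters, and each library left out. Added after seeing the data were the member mean as a covariate, for named genes not picked by their likeness to it, and pairs of libraries left out. Libraries were taken as separate animals. Where they were not, p-values measure the spread between samples, which may be technical.

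The members and gene lists were chosen with earlier results of these data known. Named were the members, Opa1, the 15 genes most like the member mean by Pearson r, and from each muscle list the 2 genes with the highest mean TPM and the called gene with the largest change. Other genes were named after their values were seen, and 1 gene that the rule names is not reported here.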

Additional observations from a re-analysis of the deposited data

How the results depend on the processing

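The counts of members called for genotype, sex and their interaction were 0 under all alternatives run, and all 45 pairs stayed correlated in each genotype on log2(TPM + 0.5), by Pearson r and with each library left out. The median SD of the members was 1.87 to 3.0 for WT libraries with each left out, and 2.57 to 4.35 for OPA1 BKO libraries, the lowest without S01 and S10, and 3.49 in OPA1 BKO on log2(TPM + 0.5). Genes called for genotype among all tested numbered 6412, 11242 with library size alone, 13598 on log2(TPM + 0.5) and 13580 on log2(TPM + 0.1), where the median log2 fold change of all genes moved from 0.01 to 0.57, 0.81 and 0.92; the members' medians were then 2.03, 1.42 and 1.37. The genotype estimate changed sign for Myh2 without S04 (-0.052, with up to 1.43 as other libraries were left out), and without S04 and S06 for Myh2 (-1.18), Myh1 (-0.17), Acta1 (-0.20), Tnnt3 (-0.041), Tnni2 (-0.094), Tnnc2 (-0.13) and Ckm (-0.015). Scaling turned Cox7a1 to 0.016 (library size alone), 0.44 and 0.44 (the TPM fits, the same value to 2 decimals) and Cox8b to 0.20 and 0.20 in the TPM fits. Pvalb was -0.038 with the member mean as a covariate. Of 1024 values of 41 named genes under alternatives, 987 kept direction and side of the threshold. Cox6a2 passed the threshold under some (library size alone 0.00856, without S09 0.0178) and missed it under others. The few counts of S10 and S01 limit ratios among members there. For sex, the median estimate of the members was -0.46 in the main fit, 0.31 on log2(TPM + 0.5) and 0.54 on log2(TPM + 0.1). The cause of these changes was not tested.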
